A study of Homo sapiens with 9 samples.

Results

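The FGF signalling genes of human spinal cord organoids (SCOs) were examined as 1 group: the fibroblast growth factor ligands (FGF), their receptors (FGFR1 to FGFR4), the ETS transcription factors ETV1, ETV4 and ETV5, the Sprouty (SPRY) and Spred (SPRED) inhibitors, IL17RD, and the dual specificity phosphatases (DUSP). The rule for members used gene symbol and protein-coding biotype and not their levels, but it was set with earlier results of these data known. Of the 31589 genes in the tables, 56 met the rule. They comprise 14 secreted ligands, 4 intracellular FGFs, 4 receptors, 3 ETS factors, 8 genes of the Sprouty, Spred and IL17RD group and 23 DUSP genes. Messenger RNA was measured by bulk RNA sequencing of whole SCOs from the human induced pluripotent stem cell line WTC, genotype WT in the labels, with 3 libraries in each of 3 conditions: vehicle (FGF), VPA (valproic acid, an anti-seizure drug that inhibits histone deacetylases) and VPA + Rapamycin (Rapamycin inhibits the kinase mTOR). The exposure lasted 96 h according to the labels. All cultures, vehicle included, received basic FGF, so no condition is free of added ligand. Each library pools several organoids of a single clone, and 3 clones of this line with a SOX10 reporter were used. The labels repeat the same 3 library codes in every condition, but which clone a code stands for is not given in the sources used here. The p-values thus measure the spread between libraries from clones of 1 line, not between lines or donors.

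FGF ligands outside the cell bind FGF receptors together with heparan sulphate, and the receptor kinases activate the RAS, RAF, MEK and ERK cascade. ERK then raises the transcription of ETV1, ETV4, ETV5, IL17RD and some of the SPRY, SPRED and DUSP genes. Several of these dampen the same cascade at the receptor, at RAF or at ERK itself. In the early spinal cord FGF signalling is known for keeping posterior neural progenitors from differentiating. The transcripts that ERK raises are commonly read as a record of ERK activity, which the present libraries did not measure directly. The authors reported a substantial rise of phosphorylated ERK in SCOs exposed to VPA. That was a western blot of protein at increasing VPA concentrations, and its relation to the RNA levels below was not tested.

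The promoters of 4 members are shown, chosen after their values were seen. SPRY1 had the smallest adjusted p of the members in VPA against vehicle and DUSP1 in VPA + Rapamycin against VPA, while FGFR3 was the highest receptor and SPRY2 the highest feedback gene per length in vehicle. Each is the 250 bases before the transcription start in RefSeq (GRCh38.p14), written 5′ to 3′ on the strand of the gene, with motif matches in capitals. SPRY1, a Sprouty inhibitor, has the window chr4:123396545-123396794 on the plus strand. SPRY2, a second Sprouty inhibitor, has chr13:80341127-80341376 on the minus strand. FGFR3, a receptor, has chr4:1793043-1793292 on the plus strand. DUSP1, a nuclear phosphatase, has chr5:172771196-172771445 on the minus strand.
SPRY1: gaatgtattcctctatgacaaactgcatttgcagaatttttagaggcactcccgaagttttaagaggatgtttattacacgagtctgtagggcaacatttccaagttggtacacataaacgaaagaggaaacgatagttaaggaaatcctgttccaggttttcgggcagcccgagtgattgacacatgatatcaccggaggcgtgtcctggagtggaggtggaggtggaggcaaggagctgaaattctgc
SPRY2: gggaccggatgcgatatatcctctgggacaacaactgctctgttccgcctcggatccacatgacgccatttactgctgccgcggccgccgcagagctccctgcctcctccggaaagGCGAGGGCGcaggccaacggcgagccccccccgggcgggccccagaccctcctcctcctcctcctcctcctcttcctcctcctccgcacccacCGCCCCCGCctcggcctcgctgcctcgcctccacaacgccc
FGFR3: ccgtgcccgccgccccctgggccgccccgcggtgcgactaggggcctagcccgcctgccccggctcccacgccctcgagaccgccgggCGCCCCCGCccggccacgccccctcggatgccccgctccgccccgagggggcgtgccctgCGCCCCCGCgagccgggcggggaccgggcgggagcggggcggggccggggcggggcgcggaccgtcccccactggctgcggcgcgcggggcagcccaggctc
DUSP1: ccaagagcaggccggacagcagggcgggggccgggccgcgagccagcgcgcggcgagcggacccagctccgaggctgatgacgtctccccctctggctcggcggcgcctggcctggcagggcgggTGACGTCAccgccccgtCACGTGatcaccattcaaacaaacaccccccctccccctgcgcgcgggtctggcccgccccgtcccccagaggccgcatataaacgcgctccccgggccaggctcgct
Both strands were searched for the letters TGACGTCA (a cyclic AMP response element), TGANTCA (an AP-1 site), GCGNGGGCG (an EGR site) and CACGTG (an E-box), which do not overlap in these windows. The windows of 42 of the 56 members were searched, and FGFR1, FGF17, FGF20, DUSP4 and DUSP26 were among the members left out. The EGR letters were in 11 of the 42 windows and in 8.44% of 34961 windows of the same length. They occurred at 2 positions in SPRY2 and at 2 in FGFR3. The TGACGTCA letters were in the windows of DUSP1 and DUSP8 and in 1.65% of all windows. In DUSP1 they lay 118 to 125 bases before the start, beside an E-box at 103 to 108 bases. The E-box was in 4 member windows and 6.35% of all, and the AP-1 letters were in 0 member windows and 6.54% of all. The windows of SPRY1 and of FGFR4, which is not shown, held none of the 4. These matches describe the letters of the windows and are not binding sites. The windows of the members were not matched to the set of all windows, so their shares are set side by side and were not tested. The windows also differ in base composition, with 45.6% G and C in SPRY1, 70.4% in SPRY2, 74.4% in DUSP1 and 86.8% in FGFR3.

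The 9 libraries held 15290436 to 17417478 counted reads, so the limit set by 3 counts was 0.172 to 0.196 CPM (read counts scaled to library size). Replicates differed beyond sampling noise in every condition. The mean chi-square per gene between replicates ran from 4.75 to 39.1, and the highest value was between vehicle replicates 1 and 3. Of the tissue markers, the summed level of 6 neural progenitor genes was 3491 to 3635 CPM in vehicle, 3448 to 3579 in VPA and 3074 to 3577 in VPA + Rapamycin. The 6 neuron markers summed to 938 to 1574, 778 to 857 and 830 to 878 CPM, and the 6 spinal HOX genes to 197 to 322, 126 to 140 and 156 to 197 CPM. The 10 mesenchyme markers summed to 151 to 317, 578 to 736 and 257 to 383 CPM, and the 7 neural crest markers to 399 to 465, 391 to 417 and 390 to 425 CPM. The 3 pluripotency markers summed to 137 to 223, 89.6 to 112 and 102 to 125 CPM, nearly all from DPPA4. POU5F1 and NANOG held at most 14 counts in any library and were not tested. Over all libraries, 4 endothelial markers summed to 3.40 to 7.98 CPM and the skeletal muscle markers to 0.756 to 18.3 CPM, with MYF5 not listed. Blood and microglia markers stayed at or below 0.297 CPM, with PTPRC not listed. In bulk RNA, fewer cells of a type and less RNA per cell cannot be told apart.

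In the SCOs exposed to VPA, the ETS factors and most Sprouty genes had lower levels than in vehicle, and FGF10, FGFR4 and DUSP5 had higher levels. Of 47 members tested, 14 fell and 7 rose, 21 in all (44.7%), at an adjusted p of at most 0.05 in edgeR's quasi-likelihood test. Among all 17360 genes tested, 32.1% passed, 16.4% higher and 15.7% lower. The share of members that rose (14.9%) was thus near that of all genes, and the share that fell (29.8%) was above it. The 7 that rose include FGF5 and FGF10, and with at least 10 counts asked of every library neither was tested and 5 rose. The median log2 fold change was -0.014 over the members and -0.0030 over all genes. The other 9 members held at most 19 counts in any library and were not tested in any comparison.

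With Rapamycin added to VPA, 10 of 46 members passed against VPA alone. SPRY1, ETV1, ETV4 and FGFR3 were higher, and FGF10, FGF13, FGFR4, DUSP1, DUSP5 and DUSP16 were lower. Over all 17317 genes, 6.74% passed, 3.01% higher and 3.73% lower, against 21.7% of members in all, 8.7% higher and 13% lower. With all 9 libraries in 1 fit, SPRY1, DUSP1 and DUSP5 passed again and the other 7 did not (adjusted p = 0.0608 to 0.282). The medians were -0.033 over members and 0.0039 over all genes. Between VPA + Rapamycin and vehicle, 5 members rose and 10 fell of 46, or 10.9% and 21.7%. The shares of all 17383 genes were 19.0% in either direction, 9.81% higher and 9.22% lower. With at least 10 counts asked of every library, 2 rose. The medians were -0.21 and -0.00087. These 3 comparisons use the same libraries in pairs, so their values are set side by side and their agreement is not a result.

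**Figure D1:**
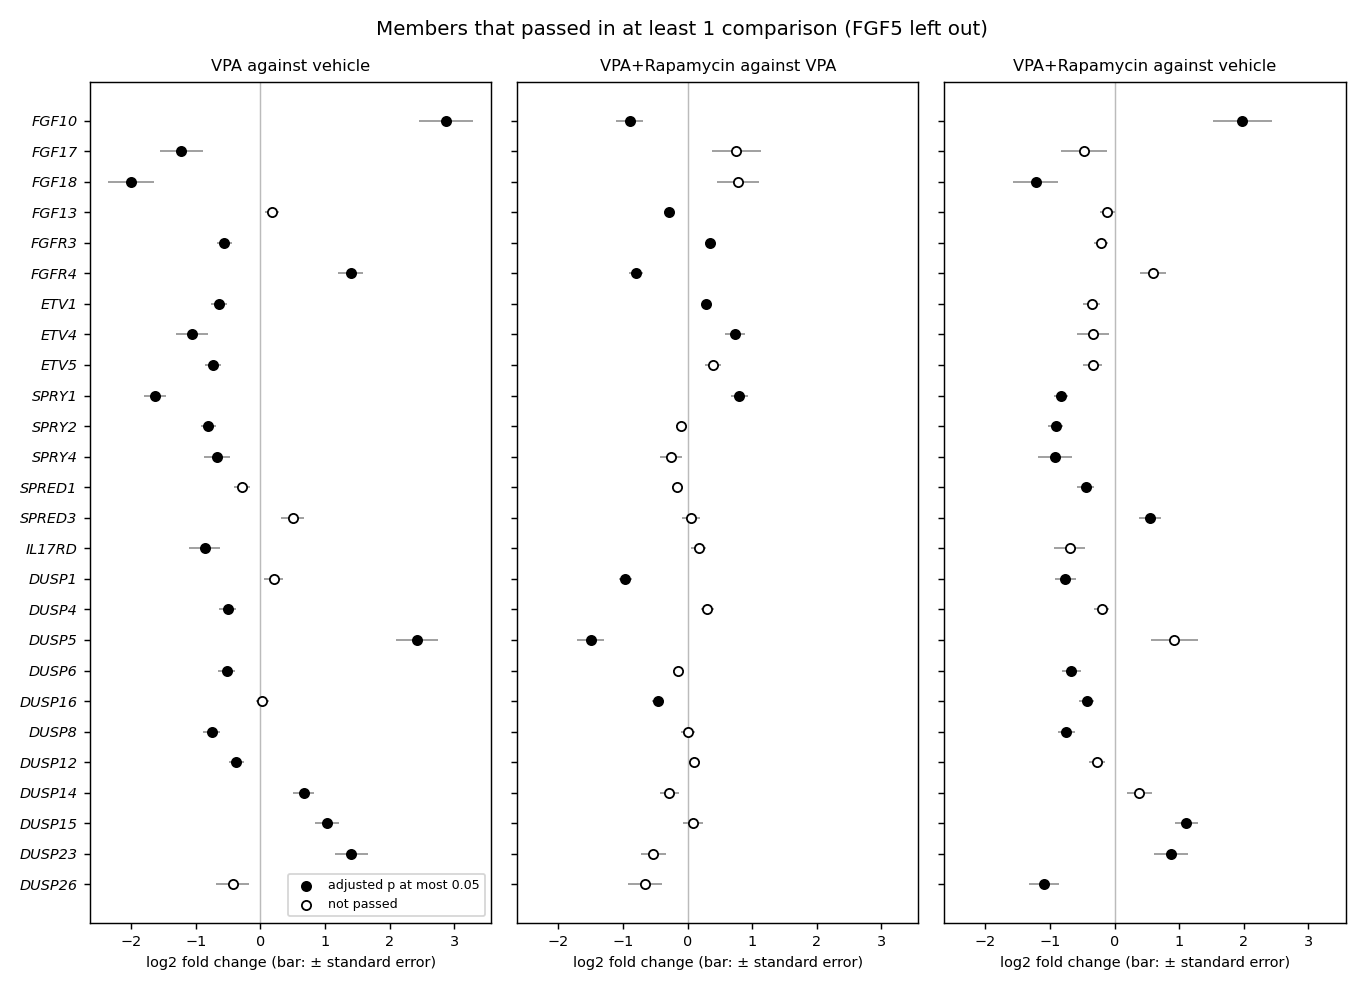
Log2 fold change with its standard error (horizontal axis) of the 26 members other than FGF5 that passed in at least 1 comparison, in order of role, with 1 panel per comparison on a shared scale. Filled points passed at an adjusted p of at most 0.05. In VPA against vehicle the ETS factors and SPRY1, SPRY2 and SPRY4 lie left of 0, while FGF10, FGFR4 and DUSP5 lie right of 0 there and left of 0 in VPA + Rapamycin against VPA.

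Among the ligands, FGF18 and FGF17 fell with VPA and FGF10 and FGF5 rose. All values by library below are normalised read counts, that is counts scaled for library size and composition, in the order of replicates 1, 2 and 3. FGF18 (chr5:171419656-171457623), a ligand of the FGF8 subfamily, had 189.5, 143 and 322 in vehicle, 79.9, 49.9 and 34.7 in VPA and 141, 78.9 and 61.4 in VPA + Rapamycin. Every VPA library was below every vehicle library, and the VPA + Rapamycin libraries overlapped those of VPA. FGF18 was 4.01-fold lower in VPA than in vehicle (log2 fold change -2.00 ± 0.35, where ± stands here and below for SE beside log2 values and for SD beside levels, adjusted p = 0.00169). It was 2.34-fold lower in VPA + Rapamycin than in vehicle (adjusted p = 0.0324), and the step from VPA to VPA + Rapamycin was 0.78 ± 0.32 on the log2 scale (adjusted p = 0.158). The fall against vehicle in VPA + Rapamycin did not pass without vehicle replicate 3 (adjusted p = 0.0591) or without VPA + Rapamycin replicate 2 (0.12) or 3 (0.114).

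FGF17, of the same subfamily, fell from a mean of 56.2 ± 13.5 in vehicle to 24.2 ± 5.79 with VPA alone, and had 40.7 ± 18 with VPA + Rapamycin (SD, 3 libraries each). It was 2.34-fold lower in VPA than in vehicle (log2 -1.22 ± 0.34, adjusted p = 0.0177). The adjusted p rose to 0.0767 without VPA replicate 2 and to 0.0651 without VPA replicate 3. FGF8, the namesake of the subfamily, was hardly detected, with 1.95, 0 and 6.13 in vehicle, 6.91, 7.13 and 8.45 in VPA and 7.86, 8.66 and 2.08 in VPA + Rapamycin. It was too low to be tested.

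FGF10 (chr5:44303544-44389706), which in embryos signals from mesenchyme to epithelium, had 7.82, 14.1 and 34.7 in vehicle, 152, 116 and 154 in VPA and 59.9, 76.0 and 90.6 in VPA + Rapamycin. The 3 conditions did not overlap, with VPA + Rapamycin between the others. FGF10 was 7.35-fold higher in VPA than in vehicle (log2 2.88 ± 0.42, adjusted p = 0.000553) and 1.86-fold lower in VPA + Rapamycin than in VPA (log2 -0.90 ± 0.21, adjusted p = 0.0149). It remained 3.95-fold above vehicle (adjusted p = 0.0143). In both comparisons with vehicle, FGF10 met the filter on low counts only with the treated libraries, as vehicle replicate 1 held 8 counts. With at least 10 counts asked of every library, FGF10 was not tested against vehicle, and its adjusted p-values there are read with that limit. The fall with Rapamycin did not pass without VPA replicate 1 (adjusted p = 0.0613) or 3 (0.0598), and the rise over vehicle did not pass without vehicle replicate 2 (0.0556) or VPA + Rapamycin replicate 3 (0.0555). The summed mesenchyme markers were also highest in VPA (578 to 736 CPM against 151 to 317 in vehicle). Of 9 tested markers, 2 rose there, COL1A1 and COL1A2 (22.2%, where 16.4% of all genes rose). Another 4 of the 9 had negative estimates, and DESeq2 called 1 higher. With Rapamycin 6 of the 9 markers fell against VPA (66.7%, where 3.73% of all genes fell), and 4 fell in DESeq2. Their part in the FGF10 result was not tested.

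FGF5, a ligand of the early epiblast, had 0.977, 1.09 and 0 in vehicle, 12.8, 11.2 and 14.1 in VPA and 14.7, 26 and 10.4 in VPA + Rapamycin. Both treated conditions were above vehicle in every library. FGF5 reached the filter on low counts through the treated libraries alone, so a gene like it could enter the test only by differing, and it was not tested with at least 10 counts asked of every library. Its adjusted p (0.00339 for VPA and 0.0055 for VPA + Rapamycin against vehicle) is read with that limit. FGF5 shares 136 exonic bases with CFAP299 on the same strand, whose mean count was 38.7% of its own. From 39 and 2 summed counts, the ratio of VPA to vehicle was 18.6 with a 95% interval of 4.82 to 159 (exact binomial, counting error only). From 52 and 2 counts, that of VPA + Rapamycin to vehicle was 25.2 with an interval of 6.63 to 213. VPA and VPA + Rapamycin differed by 0.43 ± 0.49 on the log2 scale (adjusted p = 0.666).

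FGF2, which encodes basic FGF itself, had 622, 711 and 884 in vehicle, 533, 581 and 584 in VPA and 571, 668 and 688 in VPA + Rapamycin. All VPA libraries were below all vehicle libraries, yet the difference of -0.40 ± 0.14 on the log2 scale did not pass (adjusted p = 0.0543). Of the exonic bases of FGF2, 804 (11.9%) are shared with NUDT6 on the opposite strand, and the use of strand in counting is not given in the sources used here. Per length, FGF18 was the highest ligand in vehicle with 6.64 ± 2.84 RPKM (reads scaled by gene length and by TMM-adjusted library size), and FGF2 was next with 6.61 ± 1.19, which did not differ from it beyond their spread. In VPA the order was FGF2 with 5.06 ± 0.256, FGF10 with 2.83 ± 0.427 and FGF18 with 1.67 ± 0.701 RPKM. FGF9, FGF23 and the intracellular FGF11, FGF12 and FGF14 passed in no comparison. FGF13, an intracellular FGF that binds sodium channels, was 1.22-fold lower in VPA + Rapamycin than in VPA (log2 -0.28 ± 0.07, adjusted p = 0.0288). That call was lost with the replicate number as a block (adjusted p = 0.0558), without VPA replicate 1 (0.107) or 2 (0.141) and without VPA + Rapamycin replicate 1 (0.078), and with all 9 libraries in 1 fit (0.216).

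**Figure D2:**
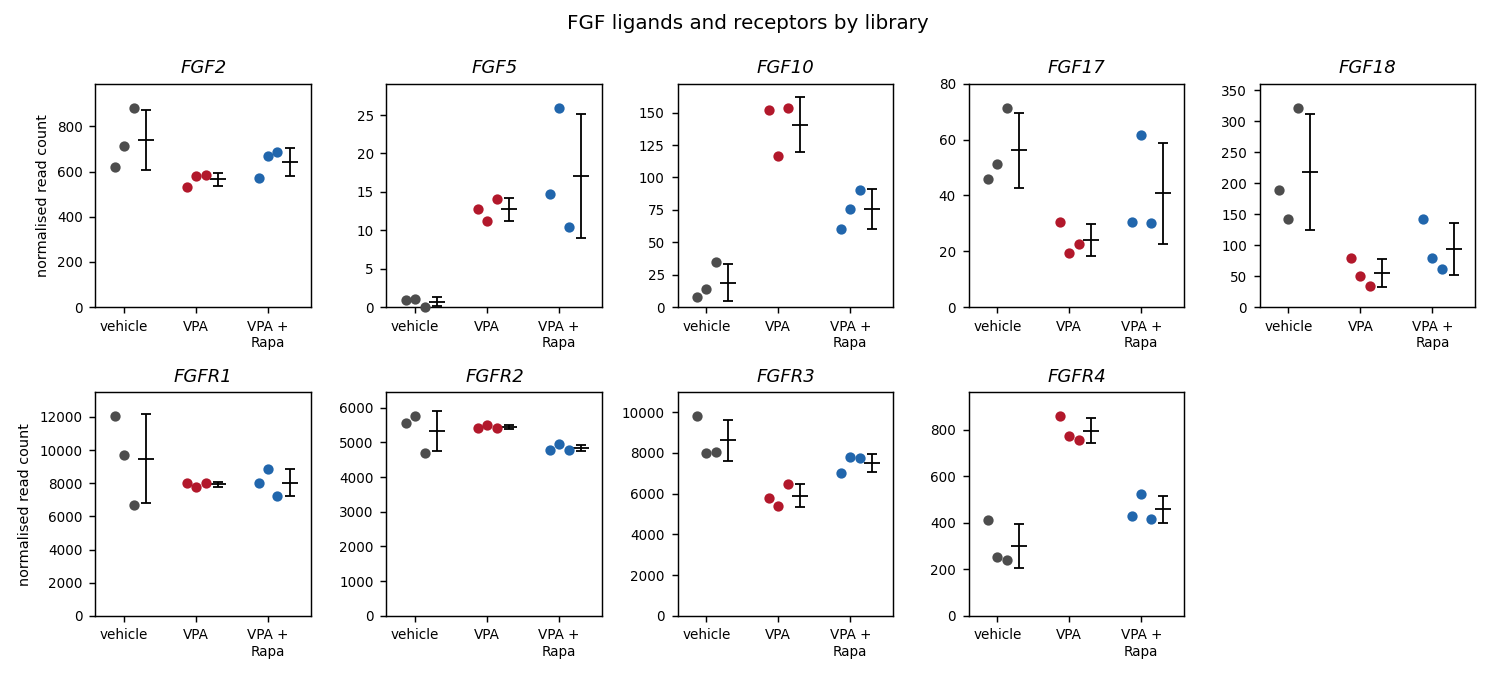
Normalised read count (vertical axis, from 0) of 5 ligands and the 4 receptors in each of the 9 libraries, with the mean and SD of each condition as a black bar. FGF10 and FGFR4 are highest in VPA and FGF18 is highest in vehicle, while the FGFR1 vehicle libraries spread from 6696 to 12038.

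Among the receptors, FGFR3 fell and FGFR4 rose with VPA, and each moved back with Rapamycin. FGFR3 (chr4:1793293-1808872), whose EGR letters are shown above, had 9802, 8001 and 8063 in vehicle, 5787, 5401 and 6497 in VPA and 7021, 7781 and 7754 in VPA + Rapamycin. The 3 conditions did not overlap. FGFR3 was 1.47-fold lower in VPA than in vehicle (log2 -0.56 ± 0.11, adjusted p = 0.0036) and 1.28-fold higher in VPA + Rapamycin than in VPA (log2 0.35 ± 0.08, adjusted p = 0.0112). Against vehicle, VPA + Rapamycin differed by -0.21 ± 0.11 on the log2 scale (adjusted p = 0.216). The rise with Rapamycin did not pass without VPA replicate 1 (adjusted p = 0.0553) or 2 (0.104) or without VPA + Rapamycin replicate 3 (0.0544).

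FGFR4 (chr5:177086886-177098144) had 410.3, 251 and 238 in vehicle, 857, 773 and 755 in VPA and 429, 524 and 418 in VPA + Rapamycin. The VPA libraries stood above all others, and VPA + Rapamycin lay just above vehicle. FGFR4 was 2.63-fold higher in VPA than in vehicle (log2 1.39 ± 0.19, adjusted p = 0.00038) and 1.74-fold lower in VPA + Rapamycin than in VPA (log2 -0.80 ± 0.11, adjusted p = 0.00018). Against vehicle it was 0.60 ± 0.21 higher on the log2 scale in VPA + Rapamycin without passing (adjusted p = 0.0657). That difference passed in DESeq2 (adjusted p = 0.0325) and in edgeR without a filter on low counts (0.0126), with all 9 libraries in 1 fit (0.0261), with the replicate number as a block (0.0185) and without vehicle replicate 1 (log2 0.89, adjusted p = 0.00279).

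FGFR1 had 12038, 9727 and 6696 in vehicle, 8027, 7758 and 8025 in VPA and 8005, 8877 and 7232 in VPA + Rapamycin. The vehicle libraries spanned the values of both other conditions, and no comparison passed (adjusted p = 0.241, 0.913 and 0.36). Without vehicle replicate 3, FGFR1 was lower in VPA (log2 -0.46, adjusted p = 0.000957) and in VPA + Rapamycin (log2 -0.44, adjusted p = 0.0143) than in vehicle. FGFR2 had 5573, 5752 and 4682 in vehicle, 5425, 5512 and 5416 in VPA and 4784, 4953 and 4778 in VPA + Rapamycin. Its difference between VPA + Rapamycin and VPA was -0.17 ± 0.07 on the log2 scale (adjusted p = 0.146 in edgeR, 0.0424 in DESeq2), and its 2 other comparisons did not pass. Per length, FGFR3 was the highest receptor in vehicle with 108 ± 12.8 RPKM. FGFR2 (42.6 ± 4.58) and FGFR1 (41.5 ± 11.7) followed and did not differ beyond their spread, and FGFR4 was lowest with 3.76 ± 1.20. That order was kept in VPA, where FGFR3 had 73.6 ± 6.94, FGFR2 43.5 ± 0.423, FGFR1 34.7 ± 0.678 and FGFR4 9.97 ± 0.681 RPKM.

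All 3 ETS factors, transcriptional effectors downstream of ERK, fell with VPA. ETV5 (chr3:186046308-186110318) had 589, 554 and 527 in vehicle, 309, 367 and 336 in VPA and 502, 463 and 364 in VPA + Rapamycin. Vehicle and VPA did not overlap, and VPA + Rapamycin reached down to the upper end of VPA. ETV5 was 1.66-fold lower in VPA than in vehicle (log2 -0.73 ± 0.13, adjusted p = 0.00157). The difference between VPA + Rapamycin and VPA was 0.40 ± 0.13 (adjusted p = 0.0657).

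ETV1 (chr7:13891228-13991425) had 2587, 3558 and 3365 in vehicle, 1985, 2161 and 1989 in VPA and 2578, 2451 and 2458 in VPA + Rapamycin. All VPA + Rapamycin libraries were above all VPA libraries and just below vehicle. ETV1 was 1.56-fold lower in VPA than in vehicle (adjusted p = 0.00309) and 1.22-fold higher in VPA + Rapamycin than in VPA (log2 0.29 ± 0.07, adjusted p = 0.0203). Among the fits that leave out 1 library, the rise with Rapamycin passed only without VPA + Rapamycin replicate 2. Its adjusted p without VPA replicate 1, 2 or 3 was 0.101, 0.0535 and 0.0734, and without VPA + Rapamycin replicate 1 or 3 it was 0.0587 and 0.0536. ETV1 was the highest of the 3 per length in vehicle (19.96 ± 3.24 RPKM).

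ETV4 went from a mean of 326 ± 134 in vehicle to 157 ± 9.26 with VPA alone and 261 ± 35.8 with VPA + Rapamycin (SD, 3 libraries each). It was 2.09-fold lower in VPA than in vehicle (log2 -1.06 ± 0.25, adjusted p = 0.00778) and 1.67-fold higher in VPA + Rapamycin than in VPA (log2 0.74 ± 0.15, adjusted p = 0.0063). Without vehicle replicate 1 the fall with VPA was smaller and still passed (log2 -0.68, adjusted p = 0.00815). ETV4 shares 68 exonic bases with DHX8 on the opposite strand, whose mean count was higher (936 against 248). Between VPA + Rapamycin and vehicle the ETS factors differed by -0.33 to -0.35 on the log2 scale, and 0 of the 3 passed in edgeR or DESeq2 (edgeR's adjusted p = 0.0751 for ETV1, 0.386 for ETV4 and 0.124 for ETV5, with unadjusted p of 0.0176, 0.213 and 0.0382).

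**Figure D3:**
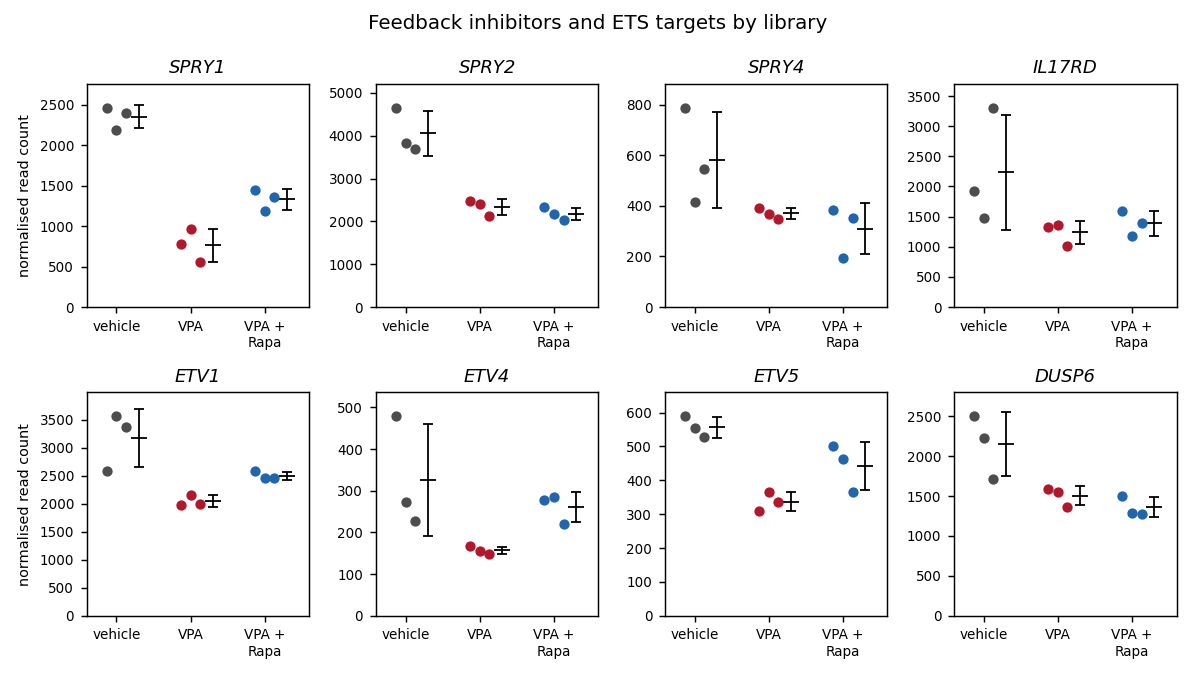
Normalised read count (vertical axis, from 0) of the Sprouty genes that passed, IL17RD, the ETS factors and DUSP6 in each of the 9 libraries, with the mean and SD of each condition as a black bar. All 8 genes were picked from the members that fell with VPA, so their VPA libraries lying below vehicle is no separate result. SPRY1 and ETV4 in VPA + Rapamycin lie above VPA while SPRY2 and DUSP6 do not.

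The Sprouty genes, which encode inhibitors of receptor signalling to RAS and RAF, split with Rapamycin: SPRY1 rose from its VPA level and SPRY2 and SPRY4 did not pass in that comparison. SPRY1 (chr4:123396795-123403760) had 2467, 2192 and 2398 in vehicle, 780.3, 964 and 557 in VPA and 1445, 1194 and 1356 in VPA + Rapamycin. The 3 conditions were well separated, with VPA + Rapamycin in between. SPRY1 was 3.09-fold lower in VPA than in vehicle (log2 -1.63 ± 0.17, adjusted p = 8.25e-05). It was 1.74-fold higher in VPA + Rapamycin than in VPA (log2 0.80 ± 0.13, adjusted p = 0.00138) and still 1.78-fold lower than in vehicle (log2 -0.83 ± 0.11, adjusted p = 0.0011).

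SPRY2 (chr13:80335976-80340951) had 4658, 3827 and 3696 in vehicle, 2479, 2395 and 2119 in VPA and 2324, 2173 and 2027 in VPA + Rapamycin. Both treated conditions were below vehicle in every library and overlapped each other. SPRY2 was 1.75-fold lower in VPA than in vehicle (log2 -0.81 ± 0.12, adjusted p = 0.000489) and 1.88-fold lower in VPA + Rapamycin than in vehicle (log2 -0.91 ± 0.12, adjusted p = 0.000876). VPA + Rapamycin and VPA differed by -0.10 ± 0.08 (adjusted p = 0.531). Per length SPRY2 was the highest feedback gene in vehicle with 80.9 ± 10.4 RPKM, above SPRY1 with 35.9 ± 2.19, and its 46.5 ± 3.75 in VPA compares with 11.7 ± 3.12 for SPRY1.

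SPRY4 had means of 583 ± 189.9 in vehicle, 370.2 ± 22 with VPA alone and 310.1 ± 101 with VPA + Rapamycin. It was 1.59-fold lower in VPA (log2 -0.67 ± 0.20, adjusted p = 0.0251) and 1.90-fold lower in VPA + Rapamycin (log2 -0.92 ± 0.27, adjusted p = 0.0347) than in vehicle. Both calls were lost in several fits that left out 1 library, and such fits also rest on fewer libraries. The adjusted p for VPA was 0.0581 without vehicle replicate 1 (log2 -0.39) and 0.0658, 0.0848 and 0.0988 without VPA replicate 1, 2 or 3. The log2 values without those VPA replicates were -0.71, -0.66 and -0.63. For VPA + Rapamycin the adjusted p was 0.0707 without vehicle replicate 1 (log2 -0.65). It was 0.0603, 0.116 and 0.0679 without VPA + Rapamycin replicate 1, 2 or 3 (log2 -1.10, -0.67 and -1.02). SPRY3 passed in no comparison.

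IL17RD, a transmembrane inhibitor of FGF receptor signalling, had means of 2233 ± 957 in vehicle, 1237 ± 189 with VPA alone and 1389 ± 208 with VPA + Rapamycin, with 3309 in vehicle replicate 3. It was 1.82-fold lower in VPA than in vehicle (log2 -0.87 ± 0.24, adjusted p = 0.0192). Without vehicle replicate 3 the fall was smaller and still passed (log2 -0.46, adjusted p = 0.00997). DESeq2 did not call it (adjusted p = 0.0769), and it did not pass without VPA replicate 1 (0.0534) or 3 (0.0954). The Spred genes, whose products recruit the RAS regulator neurofibromin, did not pass in VPA against vehicle (0 of 3 in edgeR or DESeq2, with 2 at an unadjusted p under 0.05 in edgeR). In VPA + Rapamycin against vehicle, SPRED1 was 1.36-fold lower (log2 -0.45 ± 0.13, adjusted p = 0.0336) and SPRED3 was 1.46-fold higher (log2 0.55 ± 0.17, adjusted p = 0.0488). Without vehicle replicate 3 the SPRED1 fall was -0.30 on the log2 scale (adjusted p = 0.0432). SPRED1 did not pass without vehicle replicate 2 (adjusted p = 0.0622) or VPA + Rapamycin replicate 1, 2 or 3 (0.107, 0.129 and 0.1). SPRED3 was at the threshold and did not pass without vehicle replicate 1 or 3 (0.0702 and 0.0866) or without VPA + Rapamycin replicate 1, 2 or 3 (0.14, 0.124 and 0.13). With all libraries kept, it did not pass with DESeq2's size factors in edgeR (0.05005) or without a filter on low counts (0.0571). Nor did it pass with at least 10 counts in every library (0.0502) or with protein-coding genes only (0.0517).

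The nuclear inducible phosphatases DUSP1 and DUSP5 had the steepest falls with Rapamycin among the DUSP genes that passed. DUSP1 (chr5:172768090-172771195), which removes phosphate from p38, JNK and ERK, had 603, 809 and 875 in vehicle, 845, 815 and 990.1 in VPA and 428, 427 and 504 in VPA + Rapamycin. All VPA + Rapamycin libraries were below all libraries of the other conditions, and vehicle and VPA overlapped. DUSP1 was 1.95-fold lower in VPA + Rapamycin than in VPA (log2 -0.96 ± 0.10, adjusted p = 2.36e-05) and 1.69-fold lower than in vehicle (log2 -0.76 ± 0.16, adjusted p = 0.00883), while VPA and vehicle differed by 0.20 ± 0.15 (adjusted p = 0.337). The fall against vehicle did not pass without VPA + Rapamycin replicate 1 (adjusted p = 0.0536).

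DUSP5 (chr10:110497838-110511544), a nuclear phosphatase selective for ERK, had 56.7, 21.8 and 29.6 in vehicle, 248, 174 and 169.9 in VPA and 66.8, 82.7 and 58.3 in VPA + Rapamycin. The VPA libraries stood far above the rest, and VPA + Rapamycin was just above vehicle. DUSP5 was 5.39-fold higher in VPA than in vehicle (log2 2.43 ± 0.32, adjusted p = 0.000345) and 2.83-fold lower in VPA + Rapamycin than in VPA (log2 -1.50 ± 0.21, adjusted p = 0.00026). Its difference between VPA + Rapamycin and vehicle was 0.93 ± 0.36 (adjusted p = 0.0962). DUSP4, of the same class, went the other way with VPA, from 2153 ± 260 to 1524 ± 225, a 1.42-fold fall (log2 -0.51 ± 0.13, adjusted p = 0.0127). That call was lost without vehicle replicate 2 (adjusted p = 0.0692) or VPA replicate 1 (0.0784) or 3 (0.063). DUSP2, at 2.08 to 24.4 in all libraries, did not pass.

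Of the cytoplasmic ERK phosphatases, DUSP6 (chr12:89347232-89353271) was the highest DUSP gene per length in vehicle, at 28.1 ± 5.21 RPKM. Its normalised read counts had means of 2147 ± 399 in vehicle, 1503 ± 119 with VPA alone and 1358 ± 127 with VPA + Rapamycin. DUSP6 was 1.44-fold lower in VPA (log2 -0.53 ± 0.14, adjusted p = 0.0132) and 1.59-fold lower in VPA + Rapamycin (log2 -0.67 ± 0.14, adjusted p = 0.01) than in vehicle, and Rapamycin did not move it from its VPA level past the threshold (adjusted p = 0.357). The fall with VPA did not pass without vehicle replicate 2 (0.0558) or VPA replicate 3 (0.0756), nor that with VPA + Rapamycin without its replicate 2 (0.0529) or 3 (0.0534). DUSP7 and DUSP9 passed in no comparison.

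The phosphatases of JNK and p38 did not move together. DUSP8 had 977, 865 and 1091 in vehicle, 560.3, 529 and 659 in VPA and 548, 656 and 557 in VPA + Rapamycin. Both treated conditions lay below vehicle and overlapped each other, and DUSP8 was 1.69-fold lower in VPA (log2 -0.76 ± 0.13, adjusted p = 0.00182) and 1.68-fold lower in VPA + Rapamycin (log2 -0.75 ± 0.13, adjusted p = 0.00415) than in vehicle. DUSP16 had 1862, 1851 and 2098 in vehicle, 1883, 2002 and 2078 in VPA and 1258, 1463 and 1612 in VPA + Rapamycin. Only the VPA + Rapamycin libraries were low. DUSP16 was 1.37-fold lower in VPA + Rapamycin than in VPA (log2 -0.46 ± 0.09, adjusted p = 0.00348) and 1.35-fold lower than in vehicle (log2 -0.43 ± 0.12, adjusted p = 0.0301). The latter did not pass without vehicle replicate 2 (0.0746) or VPA + Rapamycin replicate 1, 2 or 3 (0.149, 0.0978 and 0.0528). DUSP10 passed in no comparison.

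Of 11 atypical DUSP genes tested, which lack the kinase binding domain of the others, 3 rose and 1 fell with VPA (36.4%, near the 32.1% of all genes). Between VPA + Rapamycin and VPA 0 passed in edgeR or DESeq2, with 3 at an unadjusted p under 0.05 in edgeR (DUSP3, DUSP23 and DUSP26). DUSP15 had 89.9, 87.0 and 86.9 in vehicle, 188, 178 and 176 in VPA and 177, 200.1 and 198 in VPA + Rapamycin. The vehicle libraries were close together and all treated libraries were above all vehicle libraries. DUSP15 was 2.04-fold higher in VPA (log2 1.03 ± 0.18, adjusted p = 0.00167) and 2.16-fold higher in VPA + Rapamycin (log2 1.11 ± 0.18, adjusted p = 0.00269) than in vehicle. It shares 46 exonic bases with TTLL9 on the opposite strand, whose mean count was 33.0% of its own.

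DUSP23 had 83.0, 69.6 and 47.0 in vehicle, 193, 142 and 199.9 in VPA and 128, 145 and 95.8 in VPA + Rapamycin. Vehicle lay below both treated conditions, which overlapped. DUSP23 was 2.66-fold higher in VPA (log2 1.41 ± 0.25, adjusted p = 0.00179) and 1.83-fold higher in VPA + Rapamycin (log2 0.88 ± 0.27, adjusted p = 0.0418) than in vehicle. The second call did not pass without vehicle replicate 2 or 3 (0.0968 and 0.0681) or VPA + Rapamycin replicate 1, 2 or 3 (0.128, 0.158 and 0.0534). DUSP14 was 1.59-fold higher in VPA than in vehicle (adjusted p = 0.0114, but 0.0524 without vehicle replicate 2 and 0.0582 without VPA replicate 3). DUSP12 was 1.29-fold lower (log2 -0.37 ± 0.12, adjusted p = 0.0348), a call lost without vehicle replicate 2 or 3 (0.0915 and 0.053), without VPA replicate 1, 2 or 3 (0.0996, 0.106 and 0.134) without a filter on low counts (0.0793) and when replicate number was a block (0.0907). DUSP26 was 2.13-fold lower in VPA + Rapamycin than in vehicle (log2 -1.09 ± 0.23, adjusted p = 0.00951), from 124 ± 5.45 to 58.8 ± 11.9.

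**Figure D4:**
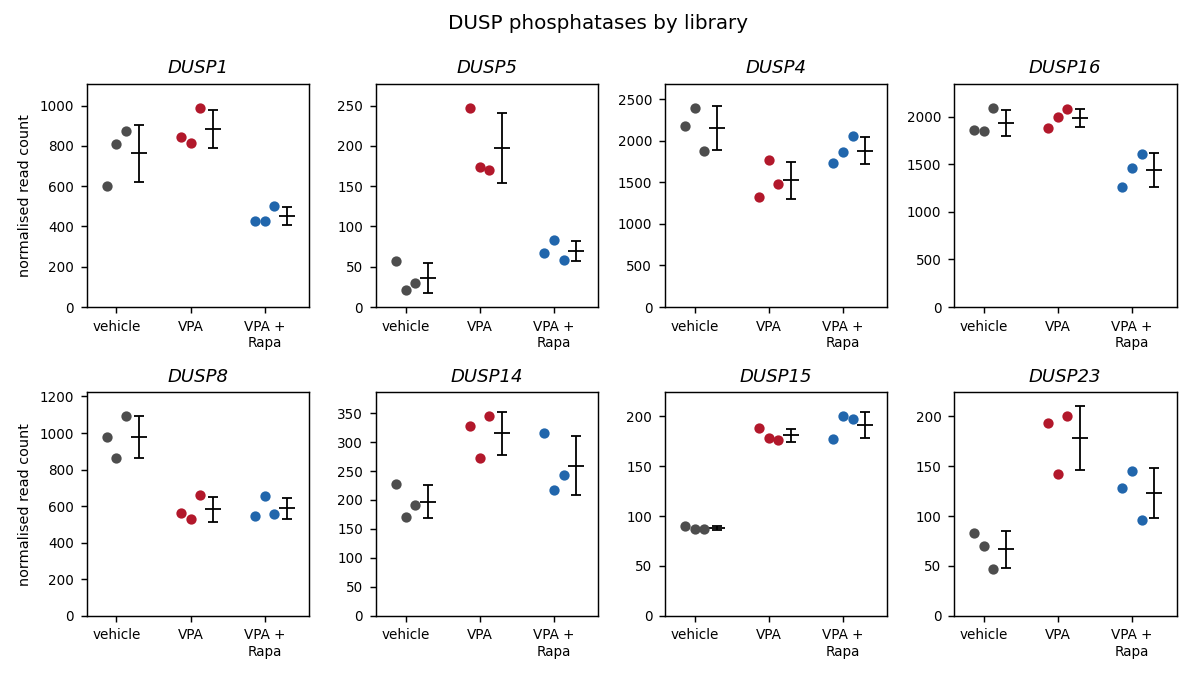
Normalised read count (vertical axis, from 0) of 8 DUSP genes in each of the 9 libraries, with the mean and SD of each condition as a black bar. DUSP5 is high in VPA alone (169.9 to 248), DUSP1 and DUSP16 are low in VPA + Rapamycin alone, and DUSP15 is raised alike in both treated conditions.

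Measured per length, the members covered a wide range of levels, and 44 of the 56 reached 0.3 RPKM in vehicle. FGFR3, SPRY2, FGFR2, FGFR1 and SPRY1 were the 5 highest there. In VPA, SPRY1 with 11.7 ± 3.12 RPKM lay below DUSP6 with 19.6 ± 1.56, which it had exceeded in vehicle with 35.9 ± 2.19 against 28.1 ± 5.21. No DUSP gene apart from DUSP6, DUSP1 (22.9 ± 4.26), DUSP16 (20.5 ± 1.47) and DUSP12 (20.4 ± 1.41) was above 20 RPKM in vehicle.

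**Figure D5:**
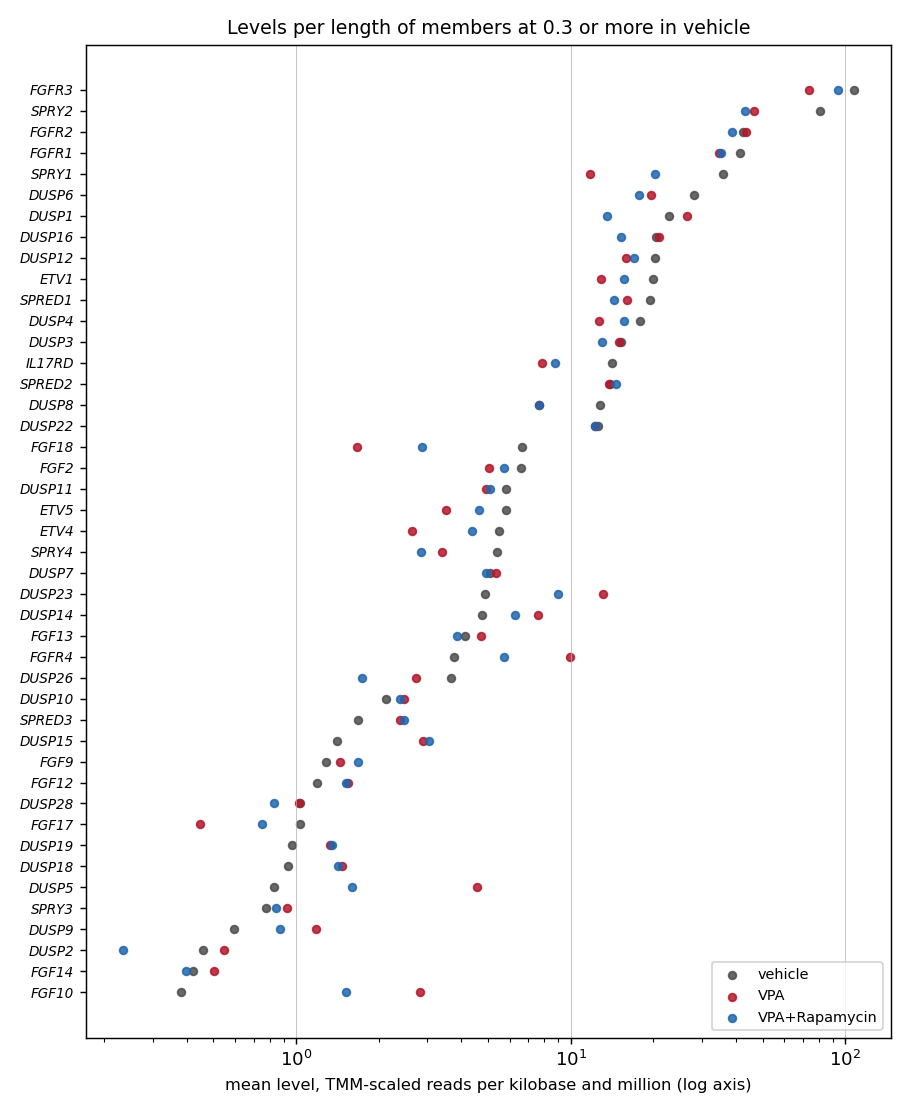
Mean level per length in each condition (horizontal log axis, TMM-scaled RPKM) of the 44 members at 0.3 or more in vehicle, ordered by the vehicle level, with 1 point per condition. FGFR3 is the highest at 108, and the 3 points of DUSP5 and FGF10 lie farthest apart.

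Genes of the pathway outside the group were counted from 4 lists. Of 25 receptor adaptors and kinases from RAS to ERK, 6 fell and 2 rose with VPA (median log2 fold change -0.16). That is 32.0%, the share of all genes being 32.1%. In VPA + Rapamycin against vehicle 3 fell (12.0%, against 19.0% of all genes in either direction), and between VPA + Rapamycin and VPA 0 passed in edgeR or DESeq2 (4 at an unadjusted p under 0.05 in edgeR). NF1, the RAS regulator, was 1.47-fold lower in VPA than in vehicle (log2 -0.56 ± 0.11, adjusted p = 0.0027), and the kinase BRAF was 1.44-fold lower (adjusted p = 0.00818). Of 23 co-receptors and heparan sulphate genes tested, 5 rose and 4 fell with VPA (39.1%, against 32.1% of all genes). From VPA to VPA + Rapamycin 4 rose and 1 fell (21.7%, against 6.74%), and between VPA + Rapamycin and vehicle 4 rose and 2 fell (26.1%, against 19.0%). FGFBP3, which carries FGFs in the matrix, was 2.53-fold lower in VPA than in vehicle (log2 -1.34 ± 0.10, adjusted p = 1.37e-05). SULF1, a sulphatase that trims heparan sulphate, was 2.51-fold higher (log2 1.33 ± 0.11, adjusted p = 2.54e-05), and its paralogue SULF2 rose 1.5-fold from VPA to VPA + Rapamycin (adjusted p = 0.00063).

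Of 13 other ERK output genes tested, 4 rose and 3 fell with VPA (53.8%, against 32.1% of all genes). From VPA to VPA + Rapamycin 5 fell (38.5%, against 6.74% of all genes in either direction), and between VPA + Rapamycin and vehicle 1 rose and 4 fell (38.5%, against 19.0%). The immediate early genes EGR1 and FOS were 11.5-fold and 10.8-fold higher in VPA than in vehicle (adjusted p = 8.11e-07 for both) and 6.36-fold and 13-fold lower in VPA + Rapamycin than in VPA (adjusted p = 3.39e-12 and 1.8e-12). CCND1, a cell cycle cyclin, was 2.16-fold lower in VPA than in vehicle (adjusted p = 6.3e-05). The list thus held genes moving opposite to one another, as did the members, where DUSP5 rose and SPRY1 fell with VPA. Of 6 posterior axial genes tested in VPA against vehicle, 1 rose and 1 fell (33.3%, near the share of all genes). Only 4 were tested in each other comparison, and 1 rose (25%). Of all genes, 3.01% were higher in VPA + Rapamycin than in VPA and 9.81% were higher than in vehicle. NKX1-2, a gene of posterior progenitors, was 3.25-fold lower in VPA than in vehicle (adjusted p = 0.00131) and 2.40-fold higher in VPA + Rapamycin than in VPA (adjusted p = 0.00722). HES7, an oscillating gene of the presomitic mesoderm, was 5.59-fold higher in VPA than in vehicle (adjusted p = 8.35e-05). The summed spinal HOX markers were lower in VPA (126 to 140 CPM) than in vehicle (197 to 322 CPM), and neuron markers were lower too (778 to 857 against 938 to 1574 CPM), with 4 of 6 falling in each list (66.7%, where 15.7% of all genes fell). Their part in the changes of the members was not tested.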

How the data were processed

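Poly-A RNA of 9 SCO libraries (3 each of vehicle, VPA and VPA + Rapamycin, grouped by the labels) was deposited as 1 table per pair of conditions. The counts the authors deposited are raw, 1 value per gene and library, made by the authors with HISAT2 2.0.5 and featureCounts 1.5.0-p3 according to the submitters' processing notes. The authors also deposited FPKM, used here as an alternative to level per length. All 31589 genes match GENCODE 29 (GRCh38) in position and length. The group means, the authors' log2 fold changes and p-values, and 18 columns of counts divided by size factors were not used.

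Each pair was fitted over all its genes in R 4.3.3 with edgeR 4.0.16: TMM factors, filterByExpr defaults, the quasi-likelihood F test without a replicate block, and Benjamini-Hochberg adjustment over all genes tested (threshold 0.05). SE is the log2 fold change over the root of its F statistic. Normalised read counts use TMM factors over the 9 libraries. Alternatives were DESeq2 1.42.0, other size factors, other filters, all 9 libraries in 1 fit, a replicate block, protein-coding genes only and leaving out each library. The methods were tested on simulated counts. The FGF5 interval used SciPy 1.17.1.

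Members named are those that passed in any comparison, the 4 receptors and the highest per length of each role. Values by library are given for the 14 with the smallest adjusted p, the receptors, FGF2 and FGF8. At most 3 genes per other list and comparison are named. Members and lists were chosen with earlier results of these data known. With 3 libraries against 3, no exact permutation p falls below 0.1, so only the fit across genes was used.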

Additional observations from a re-analysis of the deposited data

How the results depend on the processing

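The log2 fold changes of 54 pairs of member and comparison were recomputed under the alternatives, giving 752 values. None of the passing values changed sign, 666 kept their side of the threshold, 78 no longer passed and 8 passed newly. Losses came mostly from leaving out a library, which also leaves fewer libraries in the fit. In VPA against vehicle, the 14 members that fell became 8 to 15 with a library left out, the lowest without VPA replicate 3. Between VPA + Rapamycin and VPA, the 4 that rose became 7 without a filter on low counts, 1 with all 9 libraries in 1 fit and 2 to 4 with a library left out, the lowest without VPA replicate 1. The 6 that fell became 2 with all 9 libraries in 1 fit. That fit also takes in the vehicle libraries, and called 113 of all genes in place of 1168. It kept SPRY1, DUSP1 and DUSP5 and lost FGF10 (adjusted p = 0.265), FGF13 (0.216), FGFR3 (0.145), FGFR4 (0.0608), ETV1 (0.282), ETV4 (0.183) and DUSP16 (0.069). Between VPA + Rapamycin and vehicle, the 5 that rose became 2 with at least 10 counts in every library. That filter removes low genes by construction, here FGF5 and FGF10. SPRED3 was still tested there and missed the threshold (adjusted p = 0.0502). The 5 became 2 to 6 with a library left out (2 without VPA + Rapamycin replicate 3, and 3 without its replicate 1 or 2 or without vehicle replicate 2). The 10 that fell became 5 to 11 (5 without VPA + Rapamycin replicate 2 or 3, and 6 without its replicate 1). Beyond that filter, the causes of these shifts were not tested. For FGF18, the 4 receptors, ETV1, SPRY2 and DUSP6, the FPKM of the authors lay within 1 SD of each level per length except FGFR2 in VPA (43.1 against 43.5 ± 0.423), which kept its place in the order. Upper-quartile factors moved the median of all genes by less than 0.1 on the log2 scale.

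With the replicate number as a block, 7 members rose and 13 fell in VPA against vehicle, 5 and 5 between VPA + Rapamycin and VPA, and 7 and 11 between VPA + Rapamycin and vehicle. Among the members named, the block ended the calls of DUSP12 (adjusted p = 0.0907) and FGF13 (0.0558) and made FGFR4 pass in VPA + Rapamycin against vehicle (0.0185). Over 17229 genes, the deviations of same-numbered libraries correlated at -0.126 to 0.0619 for VPA and vehicle, -0.0576 to 0.0886 for VPA + Rapamycin and VPA, and 0.0740 to 0.262 for VPA + Rapamycin and vehicle. Some pairs fell below 0.1 in every comparison and not every library correlated best with its own number, so the numbers were not taken as a pairing, although the labels repeat their library codes across conditions.

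FGF8, FGF16, FGF19, FGF22 and the other members not tested held too few reads at this depth for a comparison.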
